A study of Mus musculus with 12 samples.

Results

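Enzymes that dispose of hydrogen peroxide were followed in mouse embryonic stem cells after exposure to that oxidant. 10 genes made up the set: catalase (Cat), the glutathione peroxidase genes Gpx1, Gpx3 and Gpx4, the peroxiredoxin genes Prdx1, Prdx2, Prdx3, Prdx4 and Prdx6, and the mitochondrial superoxide dismutase gene Sod2. Members were all probe sets that the platform annotation of the MG_U74Av2 array assigns to 1 of these genes alone. This gave 11 of the 12488 probe sets on the array, for 8 genes: 3 for Prdx2, 2 for Cat, and 1 each for Gpx1, Gpx3, Gpx4, Prdx3, Prdx4 and Sod2. Both probe sets of Prdx1 carry a further gene symbol and none is listed for Prdx6, so neither gene is analysed here. Of the 11 probe sets 10 passed the filter on dim signals and were tested. The exception, 100330_at of Prdx2, read between 0.591 and 12.1 signal units over the 12 arrays and is given no test.

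All cells were clone C2, a single derivative of the E14tg2a line that carries a pair of targeted I-SceI sites in every group, controls included. The control group was cells in phosphate-buffered saline (PBS) alone (3 arrays). The low-dose group received 100 µM hydrogen peroxide in PBS for 15 min (4 arrays) and the high-dose group 5 mM for 30 min (5 arrays), each followed by 1 h in normal medium before total RNA was taken. Concentration and time of exposure thus differ together between the doses. How long the controls stayed in PBS is not given in the sources used here. The descriptions of single samples name a return to medium for treated cells alone, while the treatment protocol, shared by all samples, can be read as giving it to the controls too. If the controls had none, return to medium and peroxide cannot be told apart in any comparison with them. The labels do not state whether replicates are separate cultures. A p-value here sets a difference of group means against the scatter among these samples, which may be technical only. With 3 to 5 arrays a group, their number limits the precision.

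Hydrogen peroxide crosses membranes and is removed by distinct enzyme families in different parts of the cell. Catalase, a heme enzyme of peroxisomes, splits it into water and oxygen. Glutathione peroxidases, of which the members here are selenoproteins, reduce peroxides with glutathione, and peroxiredoxins reduce them with a reactive cysteine that thioredoxin restores. Sod2, in the mitochondrial matrix, works one step earlier: it turns superoxide into hydrogen peroxide, so it supplies the substrate that the other members remove.

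Values are MAS5 signals, an intensity on a linear scale, and tests are limma's on log2(signal + 10.1), with Benjamini-Hochberg adjusted p-values over all 8695 probe sets tested and 0.05 as the threshold. Differences of log2 values are given with the standard error (SE), and fold changes are on the same offset scale. Arrays of 1 group correlated at 0.958 to 0.978 across probe sets and arrays of different groups at 0.921 to 0.957. For the beta-actin gene Actb, the reading near the 3′ end was divided by that near the 5′ end. This quotient ran from 0.871 to 1.99 among the controls (SD 0.635, n = 3). It ran from 1.11 to 1.49 at the low dose and from 1.05 to 1.49 at the high dose. The bearing of the wider control range on the comparisons was not tested. The groups differed at the top of the scale: the brightest signal was 7206 to 8904 on control arrays, 14976 to 24225 on low-dose arrays and 19733 to 34685 on high-dose arrays. All 11 stem cell markers passed the filter, and their summed signal was 27255 to 30314 with PBS alone, 33783 to 39465 after 100 µM and 31429 to 37008 after 5 mM. Over the 11 markers the median log2 difference from the controls was 0.21 after 100 µM and -0.05 after 5 mM. The 5 mM sums thus do not show a rise of these markers as a set. A sum leans on its brightest member, here Dppa5a, whose high-dose rise depended on the scaling, as given below. Dppa5a averaged 6071 with PBS alone, 8896 after 100 µM and 9655 after 5 mM. Markers of feeder fibroblasts (8 of 13 passed the filter) summed to 689 to 1016, 748 to 945 and 750.2 to 993 in the same order.

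Between the doses 9 of the 10 tested probe sets differed. This count was 6 after quantile normalization, 7 after median scaling or cyclic loess, and 6 without low-dose replicate 1. Among the 9 were 1 Prdx2 probe set higher and 1 lower at the high dose. High-dose cells had 6 of the 10 tested probe sets lower than low-dose cells and 3 higher, where 27.4% of all tested probe sets passed in either direction (12.8% higher and 14.6% lower). The arrays of both doses did not overlap for the same number, 9 of 10, against 24.3% of all tested probe sets. Against the controls fewer members passed. They were 1 higher and 2 lower at the high dose, where 11.7% of all tested probe sets passed (5.68% higher and 6.03% lower), and again 1 higher and 2 lower at the low dose, where 24% passed (12.8% higher and 11.2% lower). Arrays did not overlap with the controls for 2 members at the high dose (20% of all tested probe sets) and 4 at the low dose (32%). These comparisons share the 3 control arrays. Since the members were chosen with earlier results of these data known, the shares over all probe sets give no test of the set. Counts against the controls moved with single arrays: at the high dose 1 passed without control replicate 2 or without high-dose replicate 1, and at the low dose none passed in limma without control replicate 1 (the 3 called members, Prdx3, Gpx3 and Sod2, then at adjusted p = 0.0757, 0.0770 and 0.104) and 1 without low-dose replicate 2 or 4. At an unadjusted limma p under 0.05, 5 members passed at the high dose and 6 at the low dose. The share of all tested probe sets at this limit is not given here, so these counts cannot be read against it. The median log2 difference of the members was -0.16 for high dose minus control, 0.18 for low dose minus control and -0.38 for high minus low dose, beside 0.01, 0.08 and -0.05 over all tested probe sets.

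**Figure D1:**
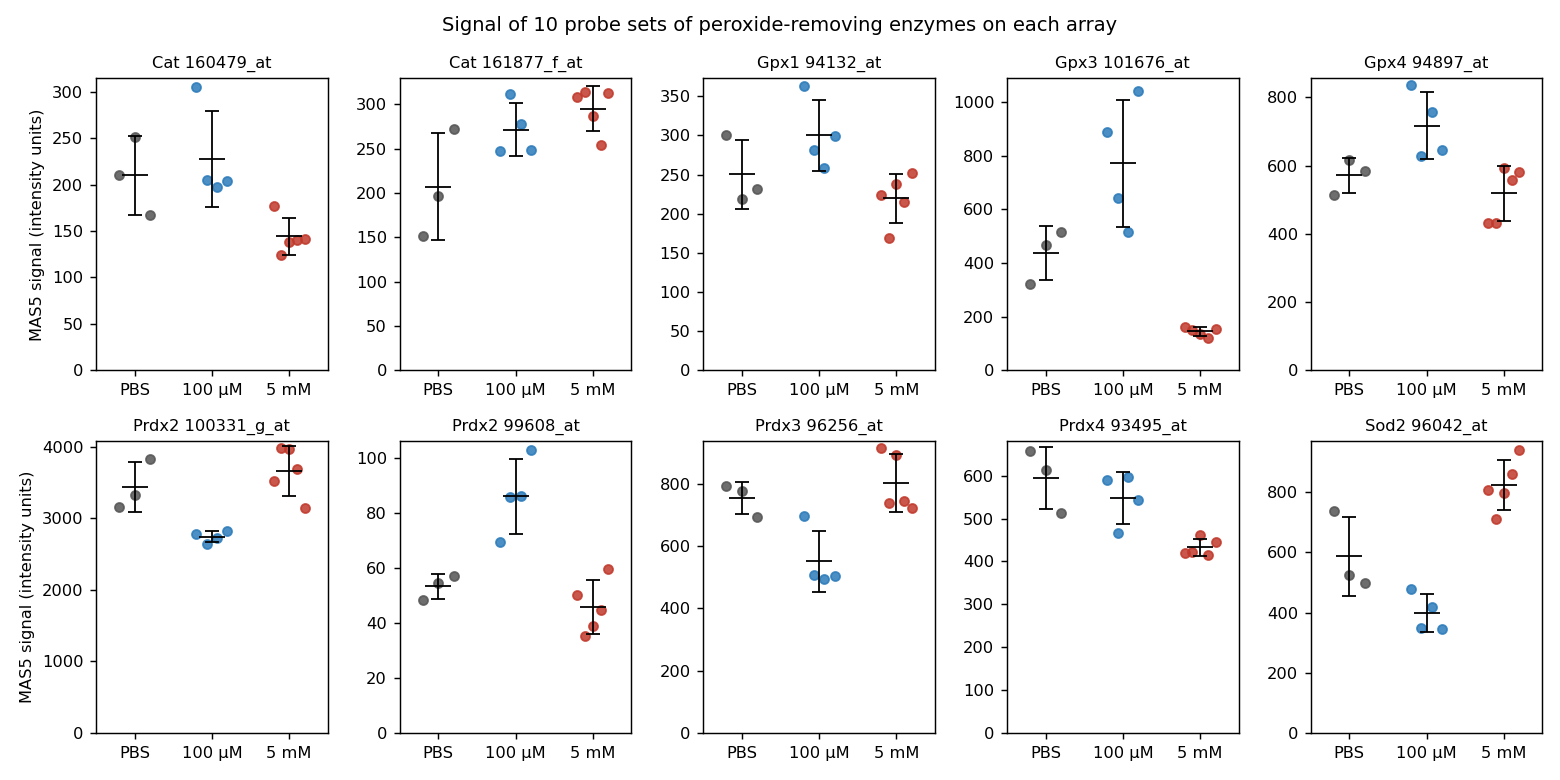
Signal of the 10 tested probe sets on every array (vertical axes, MAS5 intensity units, from 0), by treatment (horizontal axes). Points are arrays (3 in PBS, 4 at 100 µM, 5 at 5 mM), and bars are the mean and SD. Gpx3 at 5 mM lies between 122 and 163 on all 5 arrays, below every other array, while Sod2 runs the opposite way between the doses.

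Gpx3 encodes the glutathione peroxidase that cells secrete into plasma and extracellular fluid. It read 323, 469 and 517 with PBS alone, 887, 642, 515 and 1043 after 100 µM, and 163, 150.2, 137, 122 and 155 after 5 mM. The 5 high-dose arrays lay below all others, whereas the lowest low-dose array, at 515, fell just short of the highest control. In the high-dose cells the level was 2.83-fold lower than in the controls, a log2 difference of -1.50 ± 0.21 (SE, adjusted p = 0.000168), which stayed between -1.70 and -1.34 over 23 alternative settings. In the low-dose cells it was 1.72-fold higher, at 0.78 ± 0.22 (adjusted p = 0.0160), a call lost without control replicate 1 (0.59, adjusted p = 0.0770). Between the doses the gap was 4.87-fold, at -2.29 ± 0.19 (adjusted p = 4.42e-07), with the largest adjusted p over the 23 settings at 3.79e-05.

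Primitive endoderm, the extraembryonic layer next to the pluripotent cells, has markers that moved with Gpx3. Of 15 listed, 14 were tested, and their summed signal was 7257 to 11508 with PBS alone, 10555 to 11581 after 100 µM and 1646 to 1831 after 5 mM. None had a group mean below the offset of 10.1, the lowest being Foxa2 at 11.3 in the high-dose group. The list was chosen with earlier results of these data known, so the shares over all genes give no test of it. In high-dose cells 11 fell and none rose (6.84% of all genes fell), led by Dab2 (-4.00), Col4a1 (-3.56), Cubn (-3.50) and Col4a2 (-3.25). At the low dose 5 rose (11.9% of all genes rose), led by Foxa2 (2.62), Gata6 (1.76), Pdgfra (1.11, adjusted p = 0.0539 without control replicate 2) and Dab2 (0.91). With a floor in place of the offset the last 2 calls were lost (adjusted p = 0.0555 and 0.0531). Between the doses 12 were lower at the high dose (15.2% of all genes were), with Dab2, Gata6, Col4a1 and Pdgfra lower by 29.9-fold, 19.9-fold, 17.0-fold and 16.4-fold. The high-dose means of Dab2, Gata6 and Pdgfra were dim, at 28.6, 23.6 and 27.6, so the size of these folds depends on the offset. Over 23 settings the log2 differences ran from -5.40 to -4.05 for Dab2, -4.84 to -3.41 for Gata6 and -4.58 to -3.18 for Pdgfra. The part of these markers in the Gpx3 difference was not tested. In bulk RNA, fewer cells of a type and less RNA per cell cannot be told apart.

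Stem cell and fibroblast markers were also read. Their lists too were chosen with earlier results of these data known, so shares over all genes give no test of them. Of 11 stem cell markers, 4 passed at the high dose, where 12.2% of all genes passed. Dppa5a (0.66), Gdf3 (0.62) and Nanog (0.51) rose and Fgf4 fell (-0.58). Of these calls those of Dppa5a and Nanog depended on the scaling. Dppa5a was at -0.50 after quantile normalization (adjusted p = 0.00295) and 0.23 after cyclic loess (0.162), and Nanog at 0.24 (0.172) and 0.21 (0.215). Each of the 3 rises was lost without control replicate 2 (adjusted p = 0.118, 0.0831 and 0.0618) or 3 (0.0548, 0.0964 and 0.0603). Low-dose cells had 4 higher, led by Klf4 (1.49), Nanog (0.71) and Sox2 (0.61, adjusted p = 0.0545 without control replicate 2), and 1 lower, Utf1 (-0.89). Over all genes 11.9% rose and 12.7% fell at the low dose. Between the doses 3 were lower at the high dose, Klf4 (-1.71), Sox2 (-0.84) and Fgf4 (-0.80), and 2 higher, led by Gdf3 (0.74). Over all genes 15.2% were lower and 13.8% higher. Of the 8 fibroblast markers Thy1 fell at the low dose (-1.66) and was higher at the high than at the low dose (1.67), while Timp3 was lower there (-1.15, lost in 4 of 12 fits that each left out 1 array, adjusted p up to 0.107). For high dose minus control no marker passed in limma and 3 had unadjusted p-values under 0.05, with Timp3 at -0.99 and Tagln at -0.78 (adjusted p = 0.0487 without control replicate 2).

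Gpx1 and Gpx4 showed the same order of means as Gpx3 with much smaller gaps. Gpx1, the glutathione peroxidase of cytosol and mitochondria, read 301, 219 and 232 with PBS alone, 363, 281, 258 and 299 after 100 µM, and 224, 168, 238, 215 and 252 after 5 mM. Every high-dose array lay below every low-dose array, and both groups overlapped the controls. The high-dose mean was 1.35-fold below the low-dose mean, at -0.44 ± 0.15 (SE, adjusted p = 0.0389). This call was lost (adjusted p in parentheses) without low-dose replicate 1 (0.130), 2 (0.0572) or 4 (0.0703), without high-dose replicate 1 (0.0623), 2 (0.0888) or 4 (0.0654), and after quantile normalization (0.0758), median scaling (0.115) or cyclic loess (0.0760) and with no variance trend (0.0528). Against the controls the log2 values were 0.25 ± 0.17 at the low dose (adjusted p = 0.306) and -0.18 ± 0.16 at the high dose (adjusted p = 0.515), and neither passed.

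Gpx4 reduces lipid hydroperoxides inside membranes and thereby restrains ferroptosis, a cell death driven by lipid peroxidation. It read 515, 616 and 584 with PBS alone, 835, 627, 758 and 645 after 100 µM, and 432, 432, 593, 557 and 581 after 5 mM. The low-dose arrays stood above every control and every high-dose array, while the other groups overlapped. The high-dose mean was 1.38-fold below the low-dose mean, at -0.46 ± 0.13 (SE, adjusted p = 0.0165), with an adjusted p of 0.0612 without low-dose replicate 1. Against the controls the values were 0.31 ± 0.15 at the low dose (adjusted p = 0.147) and -0.15 ± 0.14 at the high dose (adjusted p = 0.561).

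Sod2 and Prdx3, whose proteins work in the mitochondrial matrix, were higher at the high than at the low dose, as was the bright probe set of the cytosolic Prdx2, while Gpx1, also found in mitochondria, was lower. Sod2 read 736, 524 and 498 with PBS alone, 477, 348, 417 and 346 after 100 µM, and 808, 712, 798, 859 and 939 after 5 mM. All low-dose arrays lay below all controls, and all high-dose arrays except replicate 2 (712) lay above every control. The high dose was 2.06-fold above the low dose, at 1.04 ± 0.14 (SE, adjusted p = 4.63e-05), and this call held under all 23 settings, with values from 0.98 to 1.15. Against the controls the low dose was 1.46-fold lower, at -0.54 ± 0.16 (adjusted p = 0.0209). That call was lost without control replicate 1 (-0.37, adjusted p = 0.104), low-dose replicate 2 (0.0571) or low-dose replicate 4 (0.0508). The high dose was 1.41-fold higher than the controls, at 0.50 ± 0.15 (adjusted p = 0.0431), close to the threshold. It was lost without control replicate 2 (0.171) or 3 (0.183), without low-dose replicate 3 (0.0503), which enters only the shared spread, without high-dose replicate 1 (0.0734), 3 (0.0624), 4 (0.0754) or 5 (0.0921), with no filter (0.0552) and with no variance trend (0.0776).

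Prdx3 is the peroxiredoxin of the mitochondrial matrix. It read 791, 775 and 694 with PBS alone, 697, 507, 495 and 502 after 100 µM, and 913, 737, 890.3, 744 and 720.4 after 5 mM. Low-dose replicate 1 sat among the controls while the other low-dose arrays lay below all of them, and the high-dose arrays lay above the whole low-dose group. High-dose cells were 1.45-fold above the low dose, at 0.54 ± 0.13 (SE, adjusted p = 0.00434), a call that held under all 23 settings (largest adjusted p 0.0169). The low dose was 1.37-fold below the controls, at -0.46 ± 0.14 (adjusted p = 0.0287). This was lost without control replicate 1 (0.0757) or 2 (0.0875), without low-dose replicate 2 (0.0683), 3 (0.0727) or 4 (0.0616), after cyclic loess (0.0619), with no variance trend (0.0533) and with only the groups compared in the fit (0.0510). The value for high dose minus control was 0.08 ± 0.14 (adjusted p = 0.749).

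The stretches upstream of the annotated starts of Gpx3, which fell at the high dose, and of Sod2 and Prdx3, which were higher there than at the low dose, are printed to show what the opposed genes hold at their starts. Each line gives the 250 bases before the RefSeq start (GRCm38.p6), 5′ to 3′ along the gene, with matches to a searched motif in capitals. Gpx3 is chr11:54902604-54902853 on the plus strand, Sod2 chr17:13007589-13007838 on the plus strand and Prdx3 chr19:60874539-60874788 on the minus strand.
Gpx3: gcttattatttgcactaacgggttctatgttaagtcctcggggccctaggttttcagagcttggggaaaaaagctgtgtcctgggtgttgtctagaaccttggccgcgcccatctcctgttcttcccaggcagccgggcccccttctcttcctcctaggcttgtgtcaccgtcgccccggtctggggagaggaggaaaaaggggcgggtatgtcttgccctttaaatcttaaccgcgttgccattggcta
Sod2: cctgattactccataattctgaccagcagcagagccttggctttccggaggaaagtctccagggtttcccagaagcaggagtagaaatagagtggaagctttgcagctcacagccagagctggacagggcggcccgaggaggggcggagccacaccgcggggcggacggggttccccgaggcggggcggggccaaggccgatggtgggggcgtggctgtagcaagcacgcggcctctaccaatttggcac
Prdx3: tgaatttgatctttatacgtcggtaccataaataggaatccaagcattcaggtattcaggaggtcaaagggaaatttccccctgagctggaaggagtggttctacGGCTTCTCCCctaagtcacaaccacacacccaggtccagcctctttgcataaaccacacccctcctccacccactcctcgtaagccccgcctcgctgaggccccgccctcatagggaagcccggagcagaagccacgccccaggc
The motifs, searched on both strands over windows of 300 bases (the 250 printed and the 50 after the start), were the antioxidant response element core TGACNNNGC, the AP-1 site TGANTCA, the FoxO site GTAAACA and the NF-kB core (GGGA, any 4 bases, then CC). The first and second can overlap. They are held by 12.4%, 7.81%, 3.65% and 20.7% of 32851 such windows of mouse genes. The 8 measured member genes have 11 windows, 4 of them for Gpx4, of which 3 lie close together. None of the 11 holds the first 3 motifs. The NF-kB core matched in Cat, in Gpx1, in Prdx3 (the capitals above, GGCTTCTCCC, on the opposite strand) and at a single place that overlapping Gpx4 windows share. The printed stretches of Gpx3, Sod2 and Prdx3 hold 55.2%, 63.6% and 55.6% G and C with 11, 15 and 9 CG dinucleotides, beside medians of 52.4% and 6 over all windows. A match is a description of letters, and its absence says only that these letters are not in the window.

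Prdx4, the peroxiredoxin of the endoplasmic reticulum, was lowest at the high dose. It read 657, 613 and 514 with PBS alone, 589, 466, 597 and 542 after 100 µM, and 419, 422, 462, 415 and 446 after 5 mM. The high-dose arrays lay below all others, and low dose and controls overlapped. Its high-dose mean was 1.36-fold below the controls, at -0.44 ± 0.12 (SE, adjusted p = 0.0286), and 1.26-fold below the low dose, at -0.33 ± 0.11 (adjusted p = 0.0377). Against the controls the call was lost without control replicate 1 (0.0905) or 2 (0.108), without high-dose replicate 1 (0.0598) or 4 (0.0511), after quantile normalization (0.0531), median scaling (0.0507) or cyclic loess (0.0624) and with no variance trend (0.0528). Against the low dose it was lost without low-dose replicate 1 (0.100), 3 (0.107) or 4 (0.0637), without high-dose replicate 1 (0.0769), 2 (0.0601), 4 (0.0713) or 5 (0.0520), after quantile normalization (0.0632) or median scaling (0.182), and with no variance trend (0.0608). Low dose minus control was -0.11 ± 0.13 (adjusted p = 0.557). The primitive endoderm markers given above were also lowest at the high dose, and their part in this difference was not tested.

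Prdx2, an abundant cytosolic peroxiredoxin, has 3 probe sets that did not read alike. The bright probe set 100331_g_at gave 3152, 3321 and 3826 with PBS alone, 2777, 2643, 2727 and 2816 after 100 µM, and 3524, 3974, 3973, 3690.4 and 3145 after 5 mM. Its low-dose arrays lay below all others. The high dose was 1.33-fold above the low dose, at 0.41 ± 0.10 (SE, adjusted p = 0.00764), which was 0.24 after quantile normalization (adjusted p = 0.0932) or cyclic loess (0.0940). The brightest of 10 bins of probe sets by mean level had a median of 0.17 in this comparison. Low dose minus control was -0.32 ± 0.12 (adjusted p = 0.0614), and it passed after quantile normalization (-0.42, adjusted p = 0.0174), cyclic loess (0.0273) or median scaling (0.0494), with the filter at the 50th percentile (0.0490) and with array quality weights (0.0260). High dose minus control was 0.09 ± 0.11 (adjusted p = 0.654), with the sign turned after quantile normalization (-0.17) and cyclic loess (-0.14).

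The dimmer Prdx2 probe set 99608_at gave 48.3, 54.4 and 57.0 with PBS alone, 69.3, 85.9, 86.1 and 103 after 100 µM, and 50.2, 35.1, 39.0, 44.8 and 59.7 after 5 mM. Here the low-dose arrays lay above all others, the reverse of the bright probe set. The high dose was 1.73-fold below the low dose, at -0.79 ± 0.19 (SE, adjusted p = 0.00536, at most 0.0208 under 22 settings). Low dose minus control was 0.59 ± 0.22 (adjusted p = 0.0556), and it passed without low-dose replicate 1 (0.0428) or without high-dose replicate 2 (0.0499) or 5 (0.0496), with 4 times the offset (0.43, adjusted p = 0.0434), with no variance trend (0.0275) and with array quality weights (0.0469). High dose minus control was -0.20 ± 0.21 (adjusted p = 0.587). No single direction for Prdx2 follows from these probe sets.

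Catalase also had probe sets that disagreed. Probe set 160479_at read 211, 252 and 167 with PBS alone, 306, 205, 197 and 204 after 100 µM, and 177, 124, 138, 140.1 and 142 after 5 mM. Every high-dose array lay below every low-dose array, while 1 of them overlapped the controls. High-dose arrays averaged 1.53-fold below the low dose, at -0.61 ± 0.17 (SE, adjusted p = 0.0113, at most 0.0457 under 23 settings). High dose minus control was -0.50 ± 0.18 (adjusted p = 0.0832). Low dose minus control was 0.11 ± 0.19 (adjusted p = 0.720), with the sign turned without control replicate 3 (-0.037) or low-dose replicate 1 (-0.035).

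The other catalase probe set, 161877_f_at, carries the suffix that Affymetrix gave to sets whose probes may match several related transcripts. It read 152, 197 and 272 with PBS alone, 247, 311, 278 and 249 after 100 µM, and 308, 314, 286, 254 and 313 after 5 mM. Low and high dose overlapped (0.12 ± 0.15, adjusted p = 0.606), and control replicate 3 lay within both. High dose minus control was 0.52 ± 0.17 (adjusted p = 0.0509). It passed without control replicate 3 (0.73, adjusted p = 0.0147) or high-dose replicate 4 (0.0487), after quantile normalization (0.0338), median scaling (0.0434) or cyclic loess (0.0342), and with the filter at the 50th percentile (0.0425). Low dose minus control was 0.41 ± 0.17 (adjusted p = 0.101), or 0.61 (adjusted p = 0.0227) without control replicate 3. For catalase, as for Prdx2, the direction thus depended on the probe set.

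**Figure D2:**
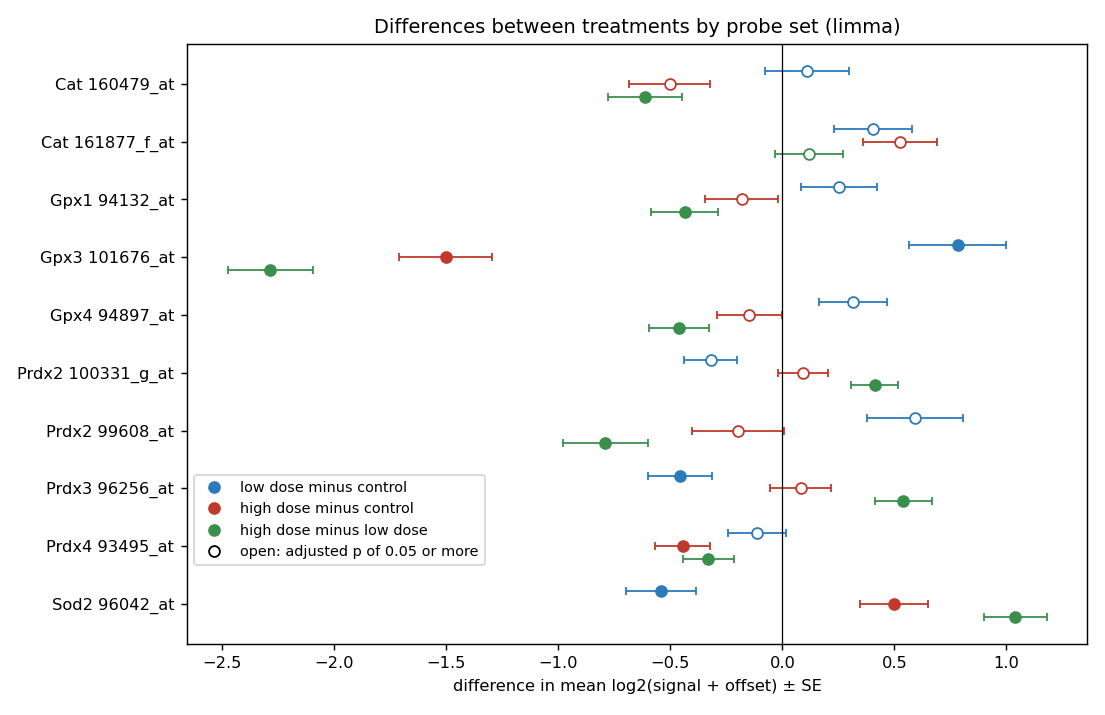
Differences in mean log2(signal + offset) with SE (horizontal axis) for the 10 tested probe sets (vertical axis) in the 3 comparisons, marked by colour. Filled points passed an adjusted p of 0.05 in limma; 9 of the high-minus-low points are filled, and Gpx3 at -2.29 and Sod2 at 1.04 are the extremes among them.

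Members were then set beside probe sets of similar brightness, since the groups differed at the bright end. In 10 equal bins by mean level, the median log2 difference of all tested probe sets ran from -0.10 to 0.12 for high dose minus control, from -0.06 to 0.22 for low dose minus control and from -0.15 to 0.17 for high minus low dose. Gpx3 lay in bin 7, counted from the dimmest, where the medians were -0.10, -0.03 and -0.02. Sod2, Prdx3 and Gpx4 lay in bin 9, with medians of -0.03, -0.06 and 0.02. The dim Prdx2 probe set lay in bin 3, whose median for low dose minus control was 0.19, against 0.59 for the probe set. Gpx1 and catalase 161877_f_at also lay in bin 7. Prdx4 lay in bin 8 (-0.08, -0.02 and -0.03) and catalase 160479_at in bin 6 (-0.05, 0.04 and -0.08). The spread within the bins is not given, so these medians do not show how unusual a member is for its brightness.

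**Figure D3:**
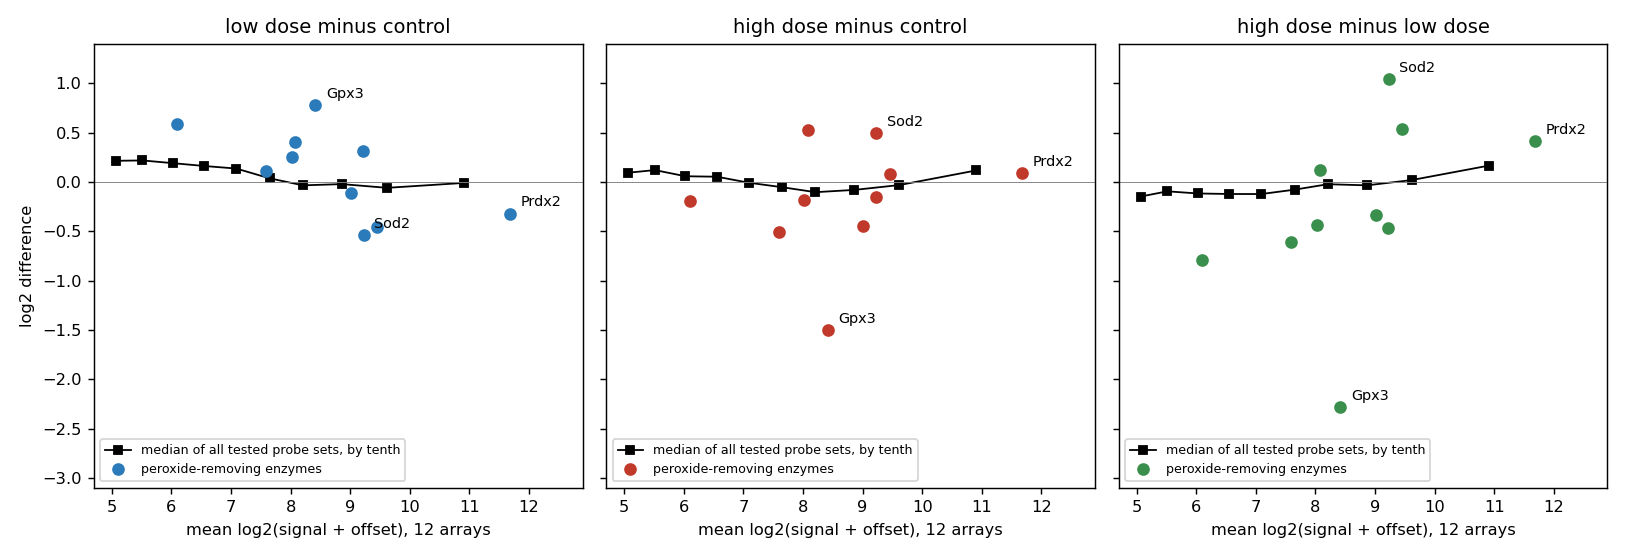
Log2 difference (vertical axes) against mean log2(signal + offset) over the 12 arrays (horizontal axes) in the 3 comparisons. Coloured points are the 10 probe sets, and black squares are the medians of all tested probe sets in each of 10 bins of level, which stay within -0.15 and 0.22, while Gpx3 reaches -1.50 and -2.29.

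The genes whose log2 values over the 12 arrays followed each member best were named by Pearson's r, which here reflects mainly the shared groups. Gpx3 was followed by Htra1, a secreted serine protease gene (r = 0.971), Bin1 (0.970) and Tgs1 (0.970). Htra1 averaged 713 with PBS alone, 1171 after 100 µM, and 231 after 5 mM. Sod2 was followed by Dusp19 (0.976), Mdp1 (0.964) and Ctdsp2 (0.959), all of them phosphatase genes. Prdx3 was followed by Strbp (0.937), the proteasome subunit gene Psmd12 (0.914) and Sart3 (0.913), and Prdx4 by Ctsz, a lysosomal cathepsin gene (0.917), Pdia5, a disulfide isomerase gene of the endoplasmic reticulum (0.911), and Eps8 (0.910). For Gpx4 they were Nfatc2ip (0.960), Arpc5 (0.942) and Ndel1 (0.937), and for Gpx1 Slc7a6 (0.890), Brd1 (0.889) and Dnajc3 (0.887). The bright Prdx2 probe set was followed by Polr1a (0.926), Cops6 (0.917) and Mrpl20 (0.911), and the brighter catalase probe set, 161877_f_at, by Atp1b1 (0.956), Ankrd11 (0.919) and Ptgds (0.909). In the main fit 161877_f_at passed in no comparison, unlike 160479_at between the doses, so these genes do not follow the catalase probe set that differed.

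Genes that serve these enzymes were read from lists, with 1 probe set a gene, and are given as log2 differences. Further probe sets of these genes are not given here, and could differ as those of Prdx2 and catalase did. The lists were chosen with earlier results of these data known. No share over all genes is given for counts at an unadjusted p. Over all 6414 genes tested, 5.36% rose and 6.84% fell at the high dose, 11.9% rose and 12.7% fell at the low dose, and 13.8% were higher and 15.2% lower at the high than at the low dose. Calls that did not hold in the 12 fits leaving out 1 array each are given with the number of fits that lost them and the largest adjusted p. Scaling also ended some calls. With arrays scaled to a common median these were Cyba (adjusted p = 0.0818), Frrs1 (0.0799), Idh1 (0.0741) and Foxo3 (0.0608) at the low dose and Hif1a (0.0505) at the high dose. After quantile normalization they were Txndc5 (0.0671) at the low dose and Tfrc (0.0587) and Hif1a (0.117) at the high dose, and after cyclic loess Txn2 (0.0906), Txndc5 (0.0842) and Pipox (0.0514) at the low dose and Tfrc (0.0575) and Hif1a (0.153) at the high dose.

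The thioredoxin system recharges peroxiredoxins, and all 11 listed genes were tested. Against the controls, Txnip, which encodes an inhibitor of thioredoxin, fell at the high dose (-1.15 ± 0.17, SE, adjusted p = 0.000311), from 1027 ± 328 (SD, n = 3) to 440.2 ± 33.0 (n = 5), and Txnl1 rose (0.60, lost in 6 fits, adjusted p up to 0.0909). At the low dose Txnl1 (0.85) and Txndc12 (0.60, lost without low-dose replicate 2 at 0.0518) rose, while Txndc5 (-0.47, lost in 9 fits, up to 0.133) and the mitochondrial thioredoxin gene Txn2 (-0.40, lost in 9 fits, up to 0.172) fell. Between the doses Txnip (-1.31), Txndc12 (-1.09) and the cytosolic thioredoxin reductase gene Txnrd1 (-0.54) were lower at the high dose and Txn2 was higher (0.39, lost in 4 fits, up to 0.0875). The median was -0.25 at the high dose, 0.16 at the low dose and -0.19 between the doses.

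Few genes of glutathione supply passed. Against the controls none of 6 tested did in limma (at an unadjusted p under 0.05, 2 at the high dose and 1 at the low dose), with Glrx at -0.45 and the cystine transporter subunit gene Slc3a2 at 0.43 at the high dose, and the glutathione synthetase gene Gss at -0.44 and Gclc at 0.31 at the low dose. Without control replicate 1 Glrx at the high dose (adjusted p = 0.0297) and Gss at the low dose (0.0428) passed. Gclc, the catalytic subunit of the rate-limiting enzyme of glutathione synthesis, was lower at the high than at the low dose (-0.63, lost in 4 fits, up to 0.0854). A further list held 4 tested genes, the glutathione peroxidase family members Gpx2, Gpx5 and Gpx7 and Msrb1, a methionine sulfoxide reductase gene whose protein repairs oxidised proteins and does not remove peroxide. Of these Gpx2, a glutathione peroxidase of epithelia, was lower at the low dose (-0.87, or -1.38 without control replicate 1, lost in 4 fits, up to 0.167). At the high dose Gpx2 was at -0.75 (adjusted p = 0.0811, and -1.26 with 9.06e-05 without control replicate 1) and Msrb1 at -0.31. Both had an unadjusted p under 0.05. Between the doses none of the 4 passed in limma. The largest differences were Gpx5 at -0.43 (adjusted p = 0.315) and Gpx7 at 0.35 (0.450), and 1 other gene had an unadjusted p under 0.05. Gpx5 and Gpx7 were dim, with group means of 18.4 to 31.9 and 23.5 to 31.2. Of the remaining dismutase genes Ccs, the copper chaperone of Sod1, fell at the low dose (-0.56, adjusted p = 0.0767 without control replicate 3). For high dose minus control Sod3 was at -0.69 and Ccs at -0.43 (0.0446 without low-dose replicate 2), and between the doses Sod1 was at -0.25 and Sod3 at -0.22, none of them past the threshold.

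NADPH pays for both the glutathione and the thioredoxin route. Of 10 tested genes of its supply, 2 fell at the high dose, the malic enzyme gene Me1 (-1.14 ± 0.23, SE, adjusted p = 0.00434) and the cytosolic isocitrate dehydrogenase gene Idh1 (-0.58, adjusted p = 0.0591 without control replicate 1 and 0.0986 without 2). At the low dose Nnt, the mitochondrial transhydrogenase gene, rose (0.64), as did Idh1 (0.51, lost in 3 fits, up to 0.122), while Taldo1 (-0.39, lost in 2 fits, up to 0.0548) and Tkt (-0.37, lost in 9 fits, up to 0.141) of the pentose phosphate pathway fell. Between the doses Me1 (-1.45) and Idh1 (-1.10) were lower and Pgls (0.70) higher at the high dose. Idh1 thus showed the same order of means as Gpx3, at 579, 839 and 384 in controls, low dose and high dose.

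Selenocysteine is built into the glutathione peroxidases by a dedicated machinery. None of its 3 tested genes passed in limma in any comparison, nor had any an unadjusted p under 0.05, with Sephs2 at 0.26 and Pstk at -0.21 at the high dose, Pstk at -0.28 and Sepsecs at -0.05 at the low dose, and Sephs2 at 0.27 and Sepsecs at 0.21 between the doses. Among 6 other selenoprotein genes Selenos rose at the low dose (0.71, lost in 2 fits, up to 0.0896), and between the doses Selenos (-0.79) and Selenok (-0.58) were lower at the high dose. Against the controls Selenok was at -0.26 and Selenot at 0.25 at the high dose, and neither passed.

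Catalase is imported into peroxisomes. Of 9 tested peroxisome assembly genes, Pex14, a docking subunit of the import channel, rose at the high dose (0.48, or 0.32 with adjusted p = 0.0943 without control replicate 1) and Pex13, its partner, was lower at the low dose (-0.74, lost in 4 fits, up to 0.151). Between the doses Pex13 (0.97) and Pex6 (0.62, lost in 4 fits, up to 0.0664) were higher at the high dose. Of 7 tested genes for enzymes that make hydrogen peroxide or superoxide, Cyba, the p22phox subunit of NADPH oxidases, rose at the high dose (0.71, adjusted p = 0.00195) and at the low dose (0.41, lost in 4 fits, up to 0.135). The peroxisomal oxidase gene Pipox was lower at the low dose than in the controls (-0.45, lost in 9 fits, up to 0.174) and higher at the high than at the low dose (0.66).

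Ferrous iron turns hydrogen peroxide into hydroxyl radicals. Of 8 tested genes of iron handling, the heme oxygenase gene Hmox1 (0.65, adjusted p = 0.00251) and the transferrin receptor gene Tfrc (0.98, lost in 8 fits, up to 0.181 with a value of 0.41 without control replicate 1) rose at the high dose and Ireb2, an iron-regulatory RNA-binding protein gene, fell (-0.70). At the low dose the ferritin heavy chain gene Fth1 fell (-0.47) and Frrs1 rose (0.43, lost in 5 fits, up to 0.120). Between the doses 5 of 8 differed, with Tfrc (1.27) and Hmox1 (0.58) higher and Frrs1 (-0.80) and Ireb2 (-0.73) lower at the high dose.

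Among 13 tested regulators of antioxidant genes, 3 rose at the low dose: Nfe2l2, which encodes the antioxidant activator Nrf2 (0.72 ± 0.14, SE, adjusted p = 0.00165), Bach1, the repressor that competes with it (0.99 ± 0.18, adjusted p = 0.00144), and Foxo3 (1.34 ± 0.45, lost in 6 fits, up to 0.103, and at 0.80 without low-dose replicate 2), whose low-dose arrays averaged 728 ± 672 (SD, n = 4). Hif1a alone passed at the high dose (0.52, lost in 7 fits, up to 0.180). Bach1 averaged 597 ± 64.8 (SD, n = 3) with PBS alone, 1192 ± 83.9 (n = 4) after 100 µM and 483 ± 121 (n = 5) after 5 mM. Between the doses Bach1 (-1.32) and Nfe2l2 (-0.61) were lower and Park7 (0.63) and Hif1a (0.58) higher at the high dose. The median of the list was 0.20 at the high dose, 0.34 at the low dose and -0.34 between the doses, beside -0.01, 0.04 and -0.04 over all genes tested.

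**Figure D4:**
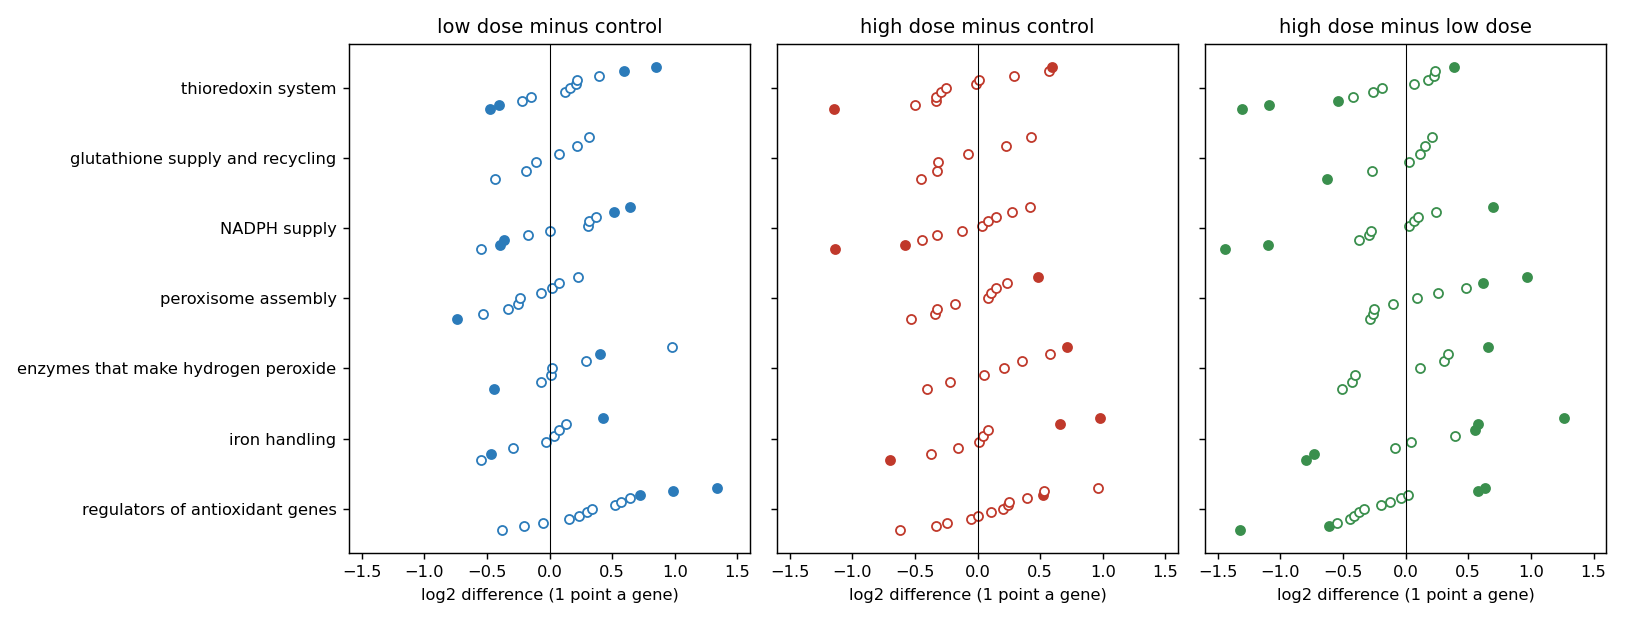
Log2 differences (horizontal axes) of the tested genes of 7 lists (rows, 1 point a gene) in the 3 comparisons. Filled points passed an adjusted p of 0.05; Txnip at -1.15 and Me1 at -1.14 are the lowest filled points of high dose minus control, and none of the 6 glutathione genes is filled against the controls.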

How the data were processed

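RNA of 12 samples of mouse embryonic stem cells was read on Affymetrix MG_U74Av2 arrays. The deposited values are intensities, 1 per probe set and array, made with MAS5 per the submitters' processing notes. Neither its version nor its scaling target is given in the sources used here. Trimmed means (2% at each end) of the arrays differed by 0.0195%, so the deposited scaling was kept.

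Log2 values were taken after an offset of 10.1, the 20th percentile of all deposited intensities, added to each, which understates changes of dim probe sets. Probe sets above the 30th percentile of mean log2 value, 8695 in all, entered a limma 3.58.1 fit (R 4.3.3) of 1 mean per group over all 12 arrays, with a variance trend, two-sided tests and Benjamini-Hochberg adjustment. The 66 control probe sets of the array did not enter. Symbols came from the platform annotation (10855 probe sets with 1 symbol, 396 with several, 1193 unlisted outside the controls), updated by Entrez number through RefSeq of assembly GRCm38.p6 (10839 matched). For lists, the brightest tested probe set stood for a gene.

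All member probe sets are named, and of each list up to 4 genes with the largest called difference, or the 2 largest where none passed. Likeness is Pearson's r over the 12 arrays. The members and lists were chosen with earlier results of these data known. Alternatives were 3 normalizations, a floor, 4 times the offset, 2 filters, 2 variance models, fewer groups, a replicate block and 12 fits leaving out 1 array each. Steps were tested on simulated data.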

Additional observations from a re-analysis of the deposited data

Results flagged for a closer look

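Among the 10 tested probe sets in the low-dose and high-dose groups, 20 groups of arrays in all, 2 held an array far from the rest of its group, and both were low-dose replicate 1. Catalase probe set 160479_at read 306 there against 205 on the nearest low-dose array, a gap of 0.927 of the group's range. Prdx3 read 697 there against 507 on the nearest, a gap of 0.938 of the range. Both gaps exceed Dixon's limit for groups of 4, and chance marks about 1 in 20 such groups. Low-dose replicate 1 was the highest of its group in 5 of the 10 probe sets and the lowest in 2.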

How the results depend on the processing

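Of 30 member results (10 probe sets in 3 comparisons), 15 were called, and 6 of these kept their direction and call under all 11 processing alternatives and all 12 fits leaving out an array, except that the dim Prdx2 probe set 99608_at did not pass the filter at the 50th percentile and has no value there. None of the 15 turned its direction. Of 687 member values under alternatives, 608 kept direction and side of the threshold, 57 lost the call, 18 gained it and 4 turned sign. The sign turns were Prdx2 100331_g_at at the high dose after quantile normalization (-0.17) and cyclic loess (-0.14), and catalase 160479_at at the low dose without control replicate 3 (-0.037) or low-dose replicate 1 (-0.035), where leaving out an array gave up to 0.24. Outside the members, signs turned for Dppa5a at the high dose after quantile normalization (-0.50), and when an array was left out for Sepsecs at the low dose (-0.25 to 0.19) and, between the doses, for Sod1 (-0.62 to 0.25) and Sod3 (-0.59 to 0.025). The cause was not tested.

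Against the controls 3 members were called at the high dose, 1 with no variance trend and 1 with the replicate block, and 3 at the low dose, 5 with array quality weights and 1 with the block. Leaving out an array gave 1 to 3, 0 to 4 and, between the doses, 6 to 9 called members. Over all probe sets the high dose gave 1018 calls against the controls, 1655 with array quality weights, 597 with the block and 490 to 1012 leaving out an array. The other comparisons gave 1425 to 2141 and 1994 to 2553 calls when an array was left out. With arrays scaled to a common median the low dose gave 868 higher and 1154 lower calls (1110 and 977 with the deposited scaling), and high against low dose 1470 and 933 (1113 and 1272).

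Replicate numbers do not pair the arrays by any label. Deviations of same-numbered arrays correlated at -0.178 to 0.148 over 10 pairs, and 4 of 11 arrays correlated best with their own number. In the replicate block fit the calls lost among members were Prdx4 (adjusted p = 0.0902) and Sod2 (0.0839) at the high dose, Gpx3 (0.0551) and Prdx3 (0.0514) at the low dose, and Prdx4 between the doses (0.0816).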

Other observations

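Among the 3 control arrays, control replicate 1 gave the highest or the lowest signal of its group for 9 of the 10 tested member probe sets, control replicate 3 for 8 and control replicate 2 for 3. With only 3 arrays, all but 1 are the highest or the lowest for any probe set, so such counts are high by construction. The spread of the controls, as SD in percent of the mean, was 29.3% for catalase 161877_f_at, 23.1% for Gpx3 and 22.2% for Sod2, against 6.92% for Prdx3. At the high dose the same probe sets had 8.64%, 11.1%, 10.1% and 11.6%.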
